A study of Mus musculus with 24 samples.

Results

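The subject is the set of mouse chromosome 15 genes that were well expressed on 24 Affymetrix arrays of Hedgehog medulloblastoma cells and cerebellum, and what happened to them in cells transformed with RAS. A gene was taken if it lies on chromosome 15 in the GRCm38 gene table or in the array annotation and if its mean log2(intensity + 16) over the 24 arrays, read from the probe set with the highest mean, was above 8.5. That gave 239 genes out of 495 chromosome 15 genes on the array, 5970 genes above the same level and 12394 genes in all. The members were thus selected on measured values, namely their level over all arrays. That mean includes the RAS arrays, so a gene low in other arrays can be a member through its rise in RAS cells. The chromosome and the comparison with RAS were, however, chosen with results of these data known, so the shift of the chromosome as a whole is given as a description with no test.

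The arrays held wild-type cerebellum at postnatal day 6 (P6, n = 2) and at adult age (n = 1), primary medulloblastomas (MB, n = 3) of adult Ptch1 mutant mice, and cultures of the 3 lines SMB21, SMB55 and SMB56. These lines came from spontaneous tumors of Ptch+/- mice, a genotype in which the receptor that restrains the Hedgehog pathway is reduced, and all their cultures carry it. They were kept as neurospheres in DMEM/F12 with B27. Parental cultures gave 4, 2 and 2 arrays of SMB21, SMB55 and SMB56. Cultures held for over 3 weeks in EGF at 20 ng/mL, bFGF at 20 ng/mL and heparin (GF) gave 1 array per line, and RAS transformed cultures gave 3, 2 and 2. The labels do not say which RAS gene or allele was used, how it was delivered, or whether a RAS culture is 1 clone. Titles call the replicates biological, but which cultures or animals they came from is not given, so p-values measure only the spread between these samples. The age label of P6 replicate 2 conflicts with its title, and the title was followed.

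RAS proteins relay signals from growth factor receptors to the ERK kinases, which act on transcription factors, the cytoskeleton and cell division. When a whole chromosome or a long stretch of it is gained or lost, transcripts of many of its genes tend to shift together in proportion, whatever their functions, which is why chromosome medians of expression are read along the chromosome. Mouse chromosome 15 carries Myc, a growth-promoting transcription factor, as well as genes of translation, the cytoskeleton and neurons. Copy number was not measured here.

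Promoters are shown for 5 members that moved the same way in RAS transformed cells of each of the 3 lines, because they show how unlike these control regions are. In the fit with all arrays Ghr, the growth hormone receptor, Golph3, a Golgi membrane protein, and Arfgap3, a regulator of Golgi vesicle coats, rose in each line, while Cerk, which phosphorylates ceramide, and Mapk8ip2, a scaffold of JNK signalling in neurons, fell in each. The sequences are the 250 bases before the gene start in RefSeq GRCm38.p6, 5′ to 3′ on the strand of the gene, with the capitals marking the motifs found.
Ghr, chr15:3583353-3583602, minus strand: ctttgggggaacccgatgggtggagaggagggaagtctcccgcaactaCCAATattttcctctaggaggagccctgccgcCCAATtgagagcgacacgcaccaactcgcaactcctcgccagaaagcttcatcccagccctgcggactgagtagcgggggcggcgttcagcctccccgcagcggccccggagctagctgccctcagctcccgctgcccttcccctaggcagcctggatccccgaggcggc
Golph3, chr15:12321246-12321495, plus strand: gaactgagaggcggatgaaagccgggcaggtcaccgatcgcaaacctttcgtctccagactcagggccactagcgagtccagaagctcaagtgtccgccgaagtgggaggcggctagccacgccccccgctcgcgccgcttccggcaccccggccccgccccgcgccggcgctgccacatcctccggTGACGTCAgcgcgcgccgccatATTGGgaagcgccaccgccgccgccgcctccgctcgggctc
Arfgap3, chr15:83350248-83350497, minus strand: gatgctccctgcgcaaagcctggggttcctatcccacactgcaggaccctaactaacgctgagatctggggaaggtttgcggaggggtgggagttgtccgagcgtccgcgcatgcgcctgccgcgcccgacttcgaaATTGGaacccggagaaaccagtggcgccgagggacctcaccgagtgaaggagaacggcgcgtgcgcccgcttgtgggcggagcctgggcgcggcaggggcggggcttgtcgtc
Cerk, chr15:86186142-86186391, minus strand: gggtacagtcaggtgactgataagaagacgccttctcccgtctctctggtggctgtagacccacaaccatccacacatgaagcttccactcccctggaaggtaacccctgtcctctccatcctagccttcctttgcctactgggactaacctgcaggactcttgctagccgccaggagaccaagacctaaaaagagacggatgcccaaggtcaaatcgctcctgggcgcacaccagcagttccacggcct
Mapk8ip2, chr15:89453661-89453910, plus strand: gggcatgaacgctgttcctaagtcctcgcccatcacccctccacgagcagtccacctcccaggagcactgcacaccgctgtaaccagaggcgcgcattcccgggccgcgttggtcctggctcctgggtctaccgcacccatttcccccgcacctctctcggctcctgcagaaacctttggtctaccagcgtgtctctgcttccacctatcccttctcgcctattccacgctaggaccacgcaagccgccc

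The RefSeq table held promoters for 139 of the 239 members, and for Klf10, Trib1, Septin3 and Rims2 it held none. In these 5, CCAAT stood at positions -202 and -170 of the Ghr promoter, at -41 of Golph3 and at -113 of Arfgap3, counted from the gene start and read on both strands, so that ATTGG is the same motif. Golph3 also held the cAMP response element TGACGTCA at -63. The windows of Cerk and Mapk8ip2 held none of the 5 motifs searched. Among the 139 promoters, the AP-1 motif TGANTCA was in 5 (3.6%, against 6.85% of all 27025 promoters of that length) and TGACGTCA in 3 (2.16% against 1.6%). The E-box CACGTG was in 15 (10.8% against 6.04%), the ETS motif CCGGAAGT in 11 (7.91% against 2.92%) and CCAAT in 58 (41.7% against 34.5%). The median GC content was 62.4% over the members' promoters and 52.0% over all, so motifs rich in G and C meet a different background in the members. A match is a run of letters and not a shown binding site.

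Some arrays stood apart before any chromosome was looked at. SMB21 parental 1 correlated with the other SMB21 parental arrays at 0.909 to 0.915 over the 5970 genes, while those 3 correlated with each other at 0.976 to 0.991. SMB56 parental 1 correlated with SMB56 parental 2 at 0.834, below its 0.875 to 0.891 with the 4 SMB21 parental arrays and its 0.882 with SMB55 parental 1. SMB56 parental 2 in turn correlated more with SMB55 parental 2 (0.937) and SMB55 parental 1 (0.881) than with SMB56 parental 1. Whether the line label of either SMB56 parental array is right, and whether the arrays numbered parental 1 were made apart from the rest, was not tested. Either would change what a difference from parental cells means. Among the members SMB56 parental 1 had Cntn1 at 7.54 where the other SMB56 arrays had 12.54 to 13.61, and Myc at 8.76 where they had 10.07 to 11.07. The main SMB56 counts and medians are therefore also given without SMB56 parental 1, in alternatives chosen after seeing the data where they go beyond leaving out each array in turn. These leave SMB56 parental 2 as the only parental reference of the line, and it is not known to be the better one. The 7 granule precursor markers, which mark the cell of origin of this tumor, summed to intensities of 15838 to 27838 in parental cells, 4585 to 13962 in GF cells and 2480 to 13050 in RAS cells. The 6 ERK feedback genes summed to 3606 to 7699 in parental, 14767 to 21400 in GF and 16958 to 27713 in RAS cells.

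On chromosome 15 the tumors lay at the level of P6 cerebellum, and most arrays of the cultured lines lay above both. Each array was set against the P6 mean, gene by gene, as log2 differences less the median difference of the 5970 genes, and the median over the 239 members was taken. The 3 tumors gave 0.01, 0.02 and -0.02, and the adult cerebellum gave 0.01. The 4 SMB21 parental arrays gave 0.06, 0.46, 0.39 and 0.43, the 2 SMB55 parental arrays 0.08 and 0.43, and the 2 SMB56 parental arrays 0.09 and 0.28. In each line parental array 1 was thus the lowest and close to the tumors. The RAS arrays gave 0.49, 0.10 and 0.34 in SMB21, 0.83 and 0.59 in SMB55, and 0.69 and 0.59 in SMB56. All 4 RAS arrays of SMB55 and SMB56 lay above every parental array, and in each of them chromosome 15 was the highest of 20 chromosomes, where the next, chromosome 6, stood at 0.26 to 0.36. In those arrays 77.0% to 79.5% of the members lay above 0.

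**Figure D1:**
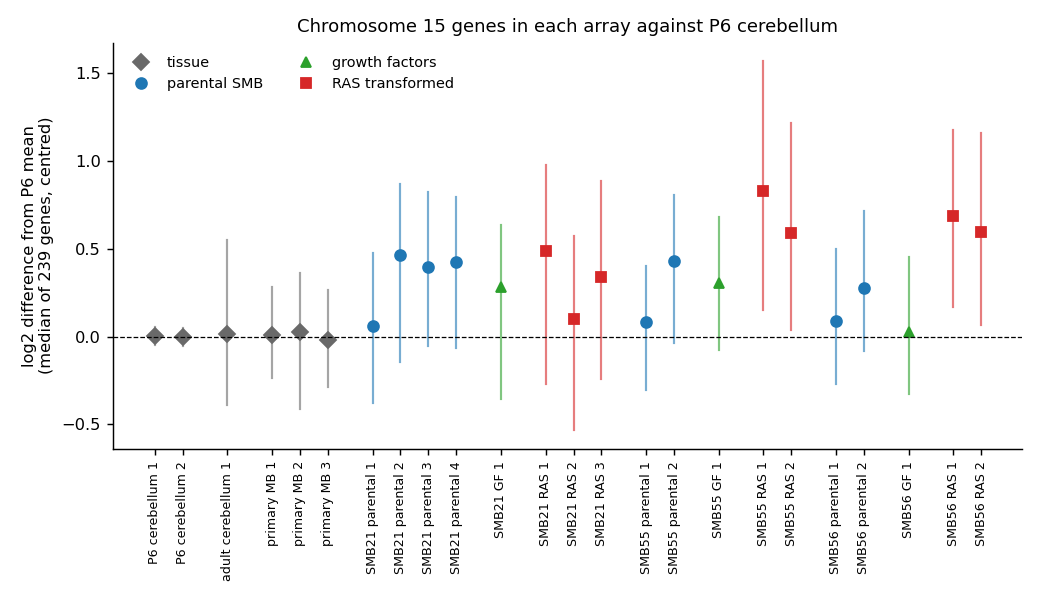
Median log2 difference from the P6 mean over the 239 chromosome 15 genes, centred on the 5970 genes above the same level, for each of the 24 arrays; vertical lines run from the lower to the upper quartile of the members. The 4 RAS arrays of SMB55 and SMB56 sit at 0.59 to 0.83, the tumors near 0, and parental array 1 of each line below the other parental arrays of its line.

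Along the chromosome the height was not even in the cultured lines. The members were put in 10 blocks by their order on the chromosome, 24 genes each and 23 in the last, from Selenop to Ppp1r1a. In all 3 tumors every block lay between -0.21 and 0.15. In the parental arrays blocks 1 to 3, from Selenop to Sqle, lay between -0.54 and 0.17, and block 4, which starts at Nsmce2, already stood at 0.19 to 0.65. Block 6, from Lgals1 to Slc25a17, was at 0.29 to 0.77. SMB55 RAS 1 reached 1.28 in block 5, from Maf1 to Pdxp, and 1.22 in block 6, while its block 10 was at 0.13. SMB56 RAS 1 was at 0.94 in block 5 and at 0.73 in block 10. In the parental arrays block 4 thus lay above blocks 1 to 3, but blocks of fixed size do not place a boundary between genes.

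**Figure D2:**
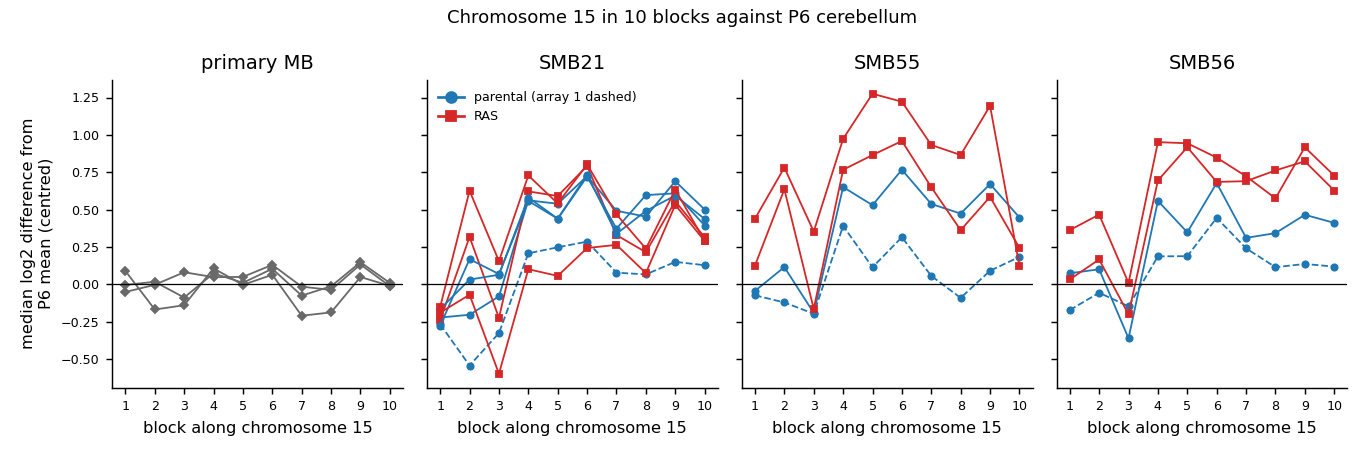
Median log2 difference from the P6 mean in 10 consecutive blocks of chromosome 15 genes, for the tumors and for the parental (blue) and RAS (red) arrays of each line; parental array 1 is dashed. The tumors stay between -0.21 and 0.15, and the lines step up from block 3 to block 4.

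Single members showed the same contrast between tumors and lines. In limma's fit, with p-values adjusted over all 12394 genes, 10 members were higher and 13 lower in primary MB than in P6 cerebellum, where 4.3% of all genes tested were higher and 6.68% lower. Once arrays were centred on their medians, 20 were higher and 8 lower. In parental SMB cells 86 members were higher and 14 lower, where 14.6% of all genes were higher and 11.0% lower. Among the 5970 genes above the same level the shares were 18.7% and 8.83% for the lines and 5.61% and 5.04% for the tumors. Without P6 replicate 1 or 2 the counts of called members fell to 25 and 29 for the lines and to 5 and 4 for the tumors, and without tumor 3 the tumor count was 10. Of 29 translation and RNA genes 16 were higher in the lines and 0 lower (median 0.53, against 0.14 over the 5970 genes), among them the ribosomal protein gene Rpl8 and the initiation factor genes Eif3d and Eif4b. Of 17 genes of replication, repair and mitosis 9 were higher and 0 lower, with Racgap1, which acts in cytokinesis, at 1.40. The largest falls were of Selenop, a selenium transport protein (-5.01, SE 0.56, adjusted p = 0.00151 by limma), and Slc1a3, a glutamate transporter of glia (-2.63, SE 0.26). Myc was 1.21 higher in the lines (SE 0.44, adjusted p = 0.0865 by limma) and did not pass. In bulk RNA, fewer cells of a type and less RNA per cell cannot be told apart.

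Against the parental cells of their own line, RAS cells of SMB55 and SMB56 had higher chromosome 15 transcripts and those of SMB21 did not. With group means the centred median over the 239 members was 0.50 in SMB55 and 0.39 in SMB56, with 78.7% of members above 0 in each, and -0.03 in SMB21. The pooled SD of the chromosome median between arrays of 1 culture group was 0.18. All 4 pairs of a RAS and a parental array were above 0 in SMB55 (0.21 to 0.75) and all 4 in SMB56 (0.26 to 0.51). In SMB21 it was 4 of 12 pairs, from -0.39 to 0.35. Each RAS array stood higher against parental 1 than against the other parental arrays of its line. SMB55 RAS 1 was 0.75 above parental 1 and 0.51 above parental 2, and SMB56 RAS 1 was 0.51 and 0.36 above them.

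The sign of the SMB55 and SMB56 shifts did not turn when an array was left out. Without parental array 1 of every line the group medians were 0.38 in SMB55, 0.33 in SMB56 and -0.11 in SMB21, an alternative that was added after the data were seen. Leaving out each array in turn gave 0.34 to 0.60 in SMB55, 0.33 to 0.47 in SMB56 and -0.12 to 0.06 in SMB21. The shift was largest in the 80 members of lowest level, at 0.62 in SMB55 and 0.53 in SMB56, and was 0.40 and 0.32 in the 80 of highest level. Near the level threshold, membership itself can rest on high values in the RAS arrays. With no level threshold the median over all 495 chromosome 15 genes was 0.19 in SMB55 and 0.16 in SMB56 and 0.00 in SMB21.

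Other chromosomes moved in the same RAS cells. In SMB55 the next highest was chromosome 10 at 0.27, and the lowest were chromosomes 19 at -0.44, X at -0.41 and 14 at -0.35. In SMB56 chromosome 7 stood at 0.36 and 13 at 0.34, close to chromosome 15, and X at -0.59 and 14 at -0.43 were the lowest. In SMB21 the highest was chromosome 13 at 0.46, which was the lowest of 20 against P6 in each of the 4 parental arrays of that line, while chromosome 15 held place 12 of 20. Chromosome 15 was thus first of 20 by group means in SMB55 and SMB56. By single pairs of a RAS and a parental array it was first in 3 of 4 in SMB55 and in 1 of 4 in SMB56, and never below place 3 in either line. In SMB56 chromosome 7 was above it against parental 1 (0.64 and 0.73), and against parental 2 chromosome 13 was above it in RAS 2 (0.26 for each after rounding).

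**Figure D3:**
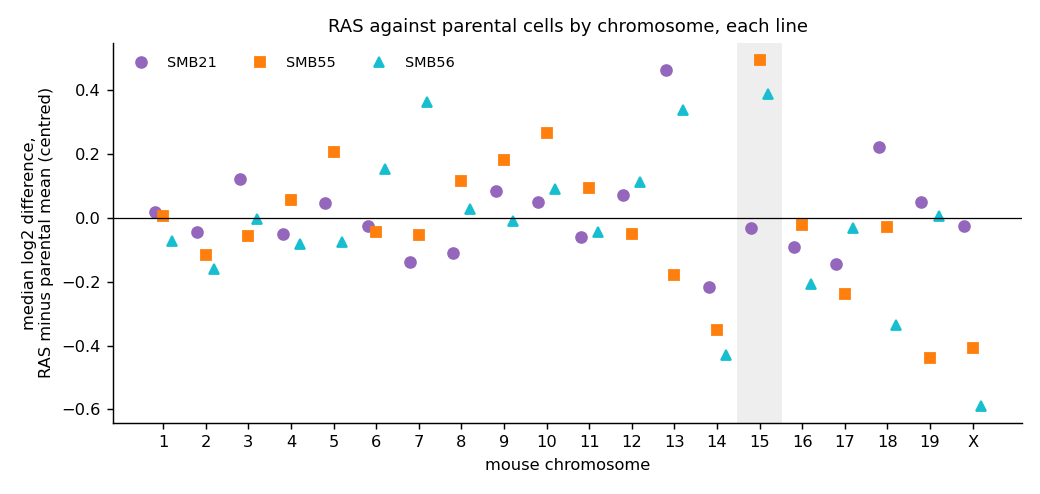
Median log2 difference of RAS transformed from parental cells over the genes of each mouse chromosome above the level threshold, 1 marker per line, centred on all such genes; chromosome 15 is shaded. It is the highest in SMB55 (0.50) and SMB56 (0.39) and near 0 in SMB21 (-0.03).

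The block medians show how the difference between RAS and parental transcripts was spread along the chromosome. In SMB56 all 10 blocks were above the parental mean, from 0.16 in block 1 to 0.69 in block 10, from Tfcp2 to Ppp1r1a. In SMB55 blocks 4 to 9 lay at 0.53 to 0.71, block 2 at 0.95 and block 3, which runs from Rims2 to Sqle, at 0.21. Block 10 of SMB55 was at 0.02, so the end of the chromosome that was highest in SMB56 was level in SMB55. Without SMB56 parental 1 all 10 blocks of SMB56 were still above 0, from 0.22 to 0.43, but block 10, at 0.36, was no longer the highest. Block 2, from Zfp622 to Dcaf13, was the highest of SMB21 as well, at 0.22, where the other blocks ran from -0.23 to 0.10.

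SMB21 RAS 2 was lower than its sister arrays over a part of the chromosome. Against the mean of RAS 1 and RAS 3 its blocks 1 and 2 stood at -0.13 and -0.31, its blocks 3 to 6 at -0.52, -0.53, -0.55 and -0.62, and its blocks 7 to 10 at -0.14, -0.06, 0.07 and -0.04. The lowest blocks thus ended with Slc25a17, the last gene of block 6, but blocks of fixed size do not place a boundary between genes. This array gave the 0.10 against P6 where RAS 1 and RAS 3 gave 0.49 and 0.34. SMB21 parental 1, by contrast, was lower than the mean of parental 2 to 4 in every block, by -0.15 to -0.51. Neither pattern was tested, since both were chosen after the values were seen.

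**Figure D4:**
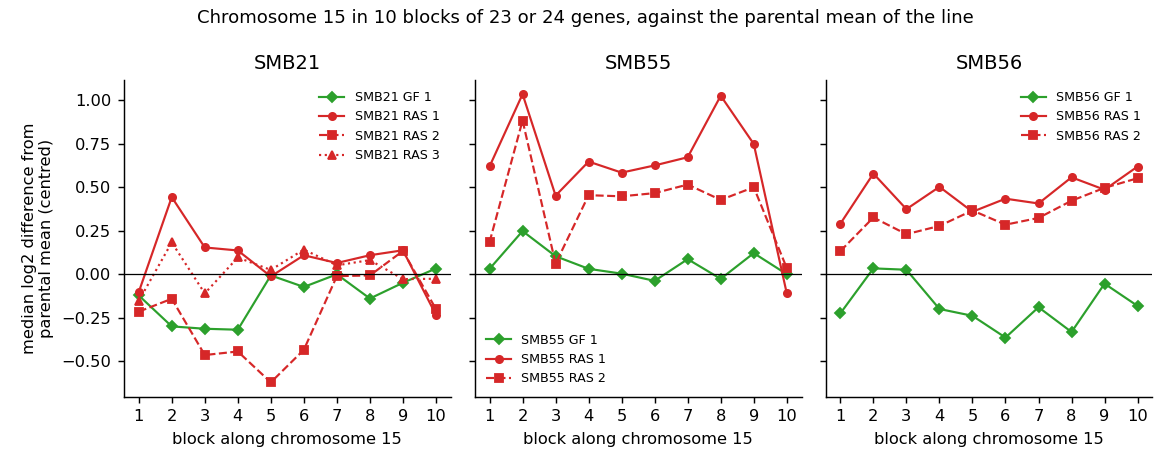
Median log2 difference from the parental mean of the line in 10 consecutive blocks of chromosome 15 genes, for each GF (green) and RAS (red) array. SMB56 RAS arrays are above 0 in every block, SMB55 RAS arrays return to near 0 in block 10, and SMB21 RAS 2 is low in blocks 3 to 6.

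Gene by gene, 58 members rose and 24 fell in RAS cells over the 3 lines, in a limma fit with the line as a term. Among all genes tested 14.1% rose and 17.9% fell, and among the 5970 genes above the same level 16.2% rose and 25.8% fell. The 58 rises are 24.3% of the members. The median over the members was 0.10 and over the 5970 genes -0.10. Once arrays were centred on their medians, 51 rose and 36 fell. Without line SMB55 it was 26 and 19, and without line SMB56 33 and 35.

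By line, 60 members rose and 15 fell in SMB55, where 10.6% and 10.9% of all genes did. In SMB56 29 rose and 5 fell, where 6.14% and 5.9% did. In SMB21 15 rose and 41 fell, where 9.1% and 10.3% did. Above the same level, 12.3% of the 5970 genes rose and 16.5% fell in SMB55. In SMB56 these shares were 6.98% and 9.41%, and in SMB21 9.72% and 15.2%. The falls in SMB21, 17.2% of the members, were thus near the share at that level. The SMB55 count of 75 was 22 without parental 1 and 26 without RAS 1. The SMB56 count of 34 was 6 without parental 1, 57 without parental 2, 10 without RAS 1 and 9 without RAS 2. Of the members that rose in SMB55, 20 also rose in SMB56, which is 33.3% of the SMB55 list and 69.0% of the SMB56 list. Of the 15 that rose in SMB21, 13 rose in SMB55 as well, which is 86.7% of the SMB21 list and 21.7% of the SMB55 list. The 8 that rose in each line were Arfgap3, Cdc42ep1, Fam118a, Ghr, Golph3, Klf10, Prkag1 and Trib1. The 4 that fell in each were Cerk, Mapk8ip2, Rims2 and Septin3. Calls shared between lines were not counted over all genes, so these counts have no background share and are not read as particular to chromosome 15. These shared calls rest on SMB56 parental 1: without it 5 members rose and 1 fell in SMB56, and Ghr alone rose and Mapk8ip2 alone fell in each line. The SMB56 differences of the others kept their sign, among them Golph3 at 0.61 (adjusted p = 0.217 by limma), Arfgap3 at 1.76 (adjusted p = 0.179) and Cerk at -0.91 (adjusted p = 0.11).

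The single arrays show these changes directly. In 131 members every SMB55 RAS array lay above every SMB55 parental array, against 43 that lay below. In SMB56 it was 137 and 27, and in SMB21 26 and 48. The shares among the 5970 genes were 30.0% higher and 39.4% lower in SMB55, 28.9% and 35.3% in SMB56, and 14.3% and 22.5% in SMB21. In all 3 lines at once 20 members (8.37%) had every RAS array above and 10 (4.18%) had every RAS array below. Of the 5970 genes 7.71% and 11.1% did, so the members were near that share for rises and below it for falls. Without SMB56 parental 1 the counts in SMB56 were 153 and 43, against 38.3% and 47.7% of the 5970 genes.

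Signalling genes held some of the largest rises. Trib1, a pseudokinase that binds an ubiquitin ligase and MAP kinase kinases, stood at log2 levels of 7.69, 7.54, 7.52 and 7.64 in SMB21 parental arrays and at 10.37, 9.08 and 8.58 in the RAS arrays. In SMB55 it went from 8.0 and 8.31 to 11.49 and 11.09, and in SMB56 from 7.46 and 8.13 to 10.42 and 10.17. No RAS array overlapped a parental one, and the tumors, at 7.46 to 7.74, lay with the parental cells. The rise was 2.34 (SE 0.31, adjusted p = 6.46e-05 by limma).

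Of the 15 signalling members 5 rose (33.3%) and 2 fell (13.3%), with a median of 0.44. Of the 5970 genes above the level 16.2% rose and 25.8% fell. Ghr, which is in no list, was at 7.52, 7.72, 8.19 and 7.59 in SMB21 parental arrays and at 10.14, 9.56 and 9.71 in RAS arrays, and it rose by 2.23 over the lines (SE 0.17, adjusted p = 1.17e-06 by limma). In SMB55 it went from 8.55 and 8.61 to 10.91 and 11.40. Its SMB21 parental arrays lay below the level of 8.5, so the RAS arrays may bear on its membership. Prkag1, a regulatory subunit of the energy sensor AMPK, rose by only 0.70 but evenly (SE 0.10, adjusted p = 0.000171), with SMB55 at 9.57 and 9.81 in parental and 10.93 and 10.68 in RAS arrays. Mapk12, the p38 gamma kinase, rose by 1.58 (SE 0.41), most in SMB56, where parental arrays had 7.21 and 8.99 and RAS arrays 11.09 and 10.96. Without SMB56 parental 1 that rise, 2.92 with an adjusted p of 0.0192 by limma, was 2.03 and not called (adjusted p = 0.154). Ywhaz, a 14-3-3 adaptor protein, rose by 0.44 (SE 0.12, adjusted p = 0.01), but with the mean over all its probe sets it was not called (0.13, adjusted p = 0.258).

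Mapk8ip2 fell in every line. It stood at 9.89, 8.94, 9.23 and 9.18 in SMB21 parental and at 7.16, 7.21 and 6.90 in SMB21 RAS arrays. SMB55 went from 9.76 and 9.73 to 6.94 and 7.37, and SMB56 from 9.56 and 8.94 to 7.31 and 7.35. The groups did not overlap, which the rule that named the largest changes required. The fall was -2.25 (SE 0.20, adjusted p = 2.78e-06 by limma). Lifr, the receptor of leukemia inhibitory factor, fell in SMB21 alone among the within-line tests (-1.05, adjusted p = 0.000677), and its response in SMB21 differed from that in the other lines by -0.90.

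Transcription and chromatin genes rose in 6 of 17 (35.3%) and fell in 2 (11.8%), with a median of 0.23. The shares of the 5970 genes were 16.2% and 25.8%. Klf10, a zinc finger factor induced early by growth factors, went from 9.58, 9.77, 10.37 and 10.74 to 12.09, 11.79 and 10.99 in SMB21. In SMB55 it went from 10.25 and 10.73 to 12.89 and 12.81, and in SMB56 from 9.34 and 10.25 to 12.39 and 12.31. It had no overlap in any line, which the rule that named the largest changes required. It rose by 2.02 (SE 0.26, adjusted p = 5.41e-05 by limma), and tumor 1, at 11.71, lay within the range of the RAS arrays. Srebf2, a regulator of cholesterol synthesis, rose by 0.73 (SE 0.19, adjusted p = 0.00923), and with the mean over its probe sets it was not called (0.46, adjusted p = 0.0652). Cbx5, a heterochromatin protein, fell by 0.70 (adjusted p = 0.00596), though another probe set stood at 0.25 in SMB55.

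The calls of Sox10 and Nr4a1 depended on single arrays. Sox10, a factor of glial and neural crest cells, was at 7.27 to 7.99 in SMB21 parental arrays and at 11.77, 7.91 and 7.76 in SMB21 RAS arrays, so that 1 array alone was high. In SMB56 it was at 7.87 and 12.45 in parental and at 12.90 and 12.82 in RAS arrays. Its rise of 1.90 (SE 0.68, adjusted p = 0.0436 by limma) and that of Nr4a1, an immediate early gene (1.86, SE 0.60, adjusted p = 0.0271), were not firm. The call of Sox10 was lost in 11 of 15 fits that left out 1 array, with the highest adjusted p (0.103) without SMB21 RAS 1. It held only without SMB21 RAS 2, SMB21 RAS 3, SMB55 parental 2 or SMB56 parental 2. The call of Nr4a1 was lost in 6, without SMB21 RAS 1 (0.0593), SMB55 RAS 2 (0.0566), SMB55 parental 1 (0.0617), SMB56 RAS 1 (0.0567), SMB56 RAS 2 (0.0547) or SMB56 parental 1 (0.0509). Oligodendrocyte markers, which share lineage with Sox10, had 3 of 4 genes on the array and 0 called, with summed intensities of 90 to 3966 in parental arrays.

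Myc was not called. It stood at 9.64, 9.49, 9.5 and 9.72 in SMB21 parental and 9.79, 9.80 and 9.65 in SMB21 RAS arrays, and at 11.06 and 11.17 against 10.69 and 11.05 in SMB55. In SMB56 it was 8.76 and 11.07 against 10.85 and 10.72, so the parental arrays lay on both sides of the RAS arrays. The difference over the lines was 0.23 (SE 0.26, adjusted p = 0.515 by limma). Its neighbour Pvt1, a noncoding gene named here after its values were seen, fell by 1.66 in SMB55 (adjusted p = 0.01) and rose by 1.74 in SMB56 (adjusted p = 0.0162; 1.42 and 0.126 without SMB56 parental 1), while SMB21 arrays overlapped. SMB55 went from 9.19 and 9.07 to 6.98 and 7.95, and SMB56 from 8.06 and 8.71 to 9.98 and 10.26. Atf4, a factor of the integrated stress response, did not pass over the lines (0.33, SE 0.14, adjusted p = 0.0958) and rose in SMB55 (0.85, adjusted p = 0.0175). Without SMB21 RAS 2 it passed over the lines as well (0.46, adjusted p = 0.00726).

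Genes of the cytoskeleton, adhesion and matrix rose in 8 of 19 (42.1%) and fell in 1 (5.26%), with a median of 0.50. Of the 5970 genes 16.2% rose and 25.8% fell. In SMB55 7 of the 19 rose and 0 fell, in SMB56 3 and 0, and in SMB21 2 and 5. Plec, which links intermediate filaments to junctions, rose by 2.34 (SE 0.46, adjusted p = 0.00132 by limma). Its arrays were at 8.5 and 9.23 in SMB55 parental against 11.68 and 12.09 in RAS, and at 6.81 and 9.19 in SMB56 parental against 11.09 and 10.66 in RAS, while in SMB21 RAS 2, at 8.88, lay within the parental range. Myh9, the heavy chain of nonmuscle myosin, rose by 1.44 (SE 0.32, adjusted p = 0.00308) and Rai14, an actin-binding protein, by 1.60 (SE 0.29, adjusted p = 0.000886).

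Lgals1, the galectin-1 gene, was among the brightest members and still did not overlap in any line. SMB21 went from 12.99, 13.16, 13.14 and 13.10 to 14.32, 13.77 and 14.72, SMB55 from 13.72 and 14.04 to 14.63 and 14.91, and SMB56 from 14.02 and 14.04 to 14.85 and 14.64. The rise was 0.98 (SE 0.15, adjusted p = 0.000222 by limma). Cdc42ep1, an effector of the small GTPase Cdc42, rose by 2.06 (SE 0.31, adjusted p = 0.000221), with SMB21 parental 1, at 10.17, among the RAS arrays of that line. Tuba1a, an alpha tubulin, was not called (0.14, SE 0.07, adjusted p = 0.145), and it passed without SMB21 RAS 3 (0.20, adjusted p = 0.0232).

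A few fibroblast and astrocyte markers, and not their lists as a whole, were higher in RAS cells. The 6 fibroblast markers summed to 1194 to 8202 in parental and 4302 to 14641 in RAS arrays, and 2 of them were called higher, Col3a1 at 3.01 and Dcn at 2.02. Lum (0.70), Col1a1 (0.23), Col1a2 (-0.07) and Pdgfra (-0.18) were not called. Pdgfra was the brightest of the 6 in parental cells, at a mean of 11.65. The 4 astrocyte markers summed to 165 to 554 in parental and 1166 to 3984 in RAS arrays through Gja1, at 4.89, while Gfap, Aqp4 and Aldh1l1 were not called. Of 10 microglia and macrophage markers 1 was called (Cd68, 2.25) and of 5 endothelial markers 1 (Kdr, 0.48). The part of other cell types in the cytoskeletal and matrix changes was not tested.

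**Figure D5:**
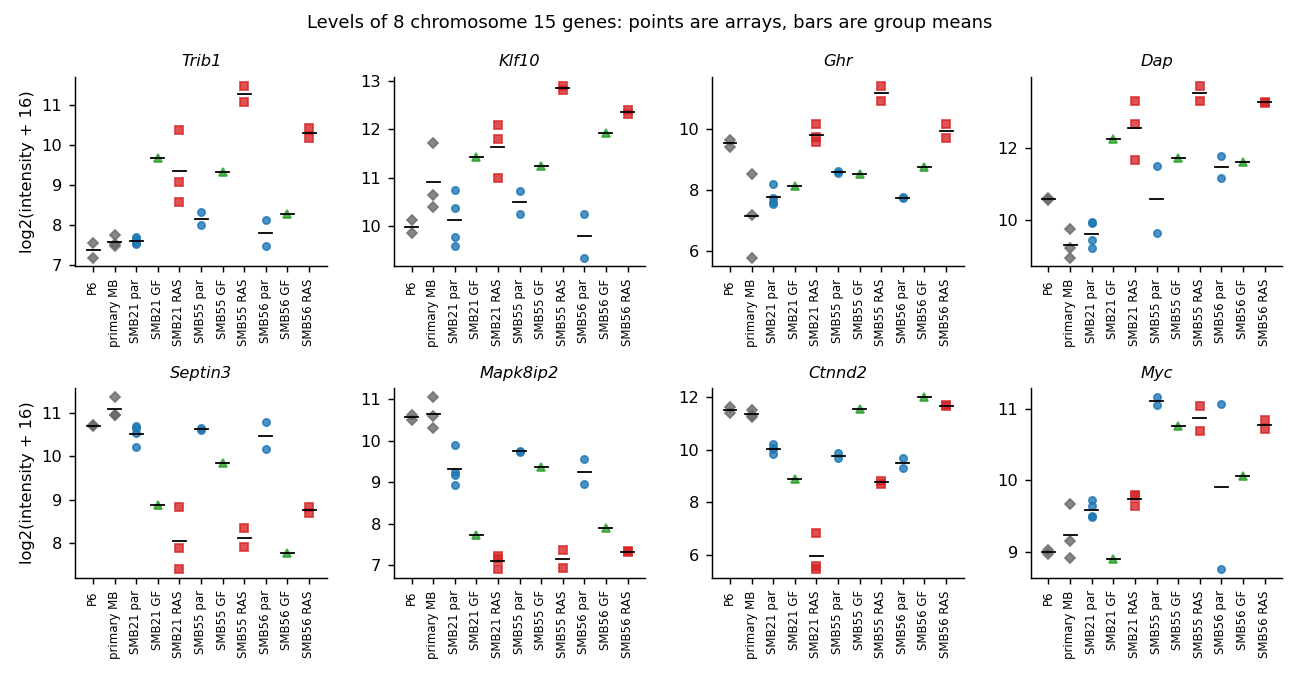
Log2(intensity + 16) of 8 chromosome 15 genes in P6 cerebellum, primary MB and each line and treatment; points are arrays and bars group means. Trib1, Klf10, Ghr and Dap are higher and Septin3 and Mapk8ip2 lower in the RAS arrays of each line without overlap. Lack of overlap was part of the rule that named the largest changes. Ctnnd2 moves in opposite directions in SMB21 and SMB56, and Myc overlaps.

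Several of the largest rises were of genes in no list. Dap, a death-associated protein linked to autophagy, rose most, by 2.65 (SE 0.35, adjusted p = 6.09e-05 by limma). Its SMB21 arrays went from 9.21, 9.44, 9.94 and 9.91 to 13.32, 11.68 and 12.68, those of SMB55 from 9.63 and 11.51 to 13.74 and 13.32, and those of SMB56 from 11.16 and 11.79 to 13.26 and 13.30. RAS and parental arrays did not overlap within a line, which the rule that named the largest changes required. The tumors were at 8.95 to 9.76. Arfgap3 rose by 1.84 (SE 0.29, adjusted p = 0.000267), Kdelr3, a retrieval receptor of the endoplasmic reticulum, by 1.82 (SE 0.37, adjusted p = 0.00166), and Golph3 by 0.68 (SE 0.10, adjusted p = 0.000229). In SMB55 Arfgap3 went from 9.07 and 9.85 to 11.95 and 11.69, and Golph3 from 11.40 and 11.35 to 12.20 and 12.06. Ank, a transporter of pyrophosphate, rose by 1.83 (SE 0.40) and Fam118a by 1.43 (SE 0.31).

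Among 27 genes of metabolism and mitochondria 4 rose (14.8%) and 3 fell (11.1%), against 16.2% and 25.8% of the 5970 genes. Their median was 0.10, as over all members, so the rises were near the background share. Cyb5r3, a cytochrome b5 reductase, rose by 1.61 (SE 0.26, adjusted p = 0.000359 by limma), from 9.82 and 10.92 to 12.92 and 12.60 in SMB55. Creld2, induced by stress of the endoplasmic reticulum, rose by 0.86 (SE 0.17), and Sco2, which helps assemble cytochrome oxidase, by 0.45 (SE 0.11). Cerk fell by 1.10 (SE 0.16, adjusted p = 0.000171), in SMB21 from 10.92, 10.76, 11.02 and 10.87 to 10.16, 9.27 and 9.59 and in SMB56 from 10.90 and 10.47 to 9.51 and 9.62. Its fall in RAS cells ran against its rise over P6 in the tumors (1.32) and in the parental lines (1.27). The parental arrays enter the fall and the rise of the lines with opposite signs, so that contrast is partly built in. Mettl7a1, a putative methyltransferase, fell by 1.87 (SE 0.49), and within lines it passed in SMB21 (-3.32, adjusted p = 0.000802) and not in SMB56 (-1.56, adjusted p = 0.132) or SMB55 (0.30).

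Few translation genes passed the test. Of 29 members of that list 3 rose (10.3%) and 0 fell, with a median of 0.07, against 16.2% and 25.8% of the 5970 genes. Bop1, a factor of ribosome assembly, rose by 0.56. The splicing protein Scaf11 rose by 0.33, and Pabpc1, the main poly(A) binding protein, by 0.21. These 3 calls were weak. With 1 of 15 arrays left out, the adjusted p of Bop1 lay between 0.00786 and 0.0578, and its call was lost without SMB55 RAS 1 (0.0524), SMB55 RAS 2 (0.0534), SMB55 parental 1 (0.0578) or SMB56 RAS 1 (0.0566). The call of Scaf11 was lost in 8 of the 15 fits (adjusted p up to 0.08), namely without SMB21 parental 1, any of the 4 SMB55 arrays, SMB56 RAS 1 or 2, or SMB56 parental 1. That of Pabpc1 was lost in 5 (up to 0.0636), without SMB21 RAS 1, SMB55 RAS 1 or 2, SMB55 parental 1 or SMB56 RAS 1. With arrays centred on their medians Scaf11 (0.25) and Pabpc1 (0.13) were not called. With the mean over all probe sets of a gene Scaf11 turned to -0.09 (adjusted p = 0.54) and Pabpc1 was not called (0.22). Eif3h, an initiation factor, differed by -0.01 (SE 0.11, adjusted p = 0.963 by limma), with SMB55 at 13.06 and 13.36 in parental and 13.13 and 13.05 in RAS arrays. Rad21, a cohesin subunit, differed by 0.01 (SE 0.10, adjusted p = 0.952).

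Of 17 genes of replication, repair and mitosis 4 fell and 0 rose in RAS cells, with a median of -0.07. The 4 are 23.5% of the list, near the 25.8% of the 5970 genes that fell. By line 7 fell in SMB21 (41.2%), 3 in SMB55 (17.6%) and 0 in SMB56, against 15.2%, 16.5% and 9.41% of the 5970 genes. Skp2, which marks cell cycle inhibitors for destruction, fell by 1.00 (SE 0.16, adjusted p = 0.000315 by limma), from 11.71 and 11.43 to 10.53 and 10.41 in SMB55 and from 11.55 and 11.51 to 10.60 and 10.54 in SMB56. Racgap1 fell by 0.88 (SE 0.21), Cenpm, a centromere protein, by 0.82 (SE 0.15) and Nup50, a nuclear pore protein, by 0.72 (SE 0.11). The fall of Nup50 depends on the probe set: the kept one gave -0.79, -0.60 and -0.71 in SMB21, SMB55 and SMB56, and the other 0.33, 1.07 and 0.55. For Racgap1 the other probe set gave -0.50, -0.40 and 0.19. Ift27, a small GTPase of the cilium that is in no list, fell by 1.01 (SE 0.16, adjusted p = 0.000235).

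The 3 largest falls were of Septin3, Mapk8ip2 and Rims2. Of the 8 members in the list of neurons and glia 3 fell (37.5%) and 1 rose (12.5%), against 25.8% and 16.2% of the 5970 genes. Their median was -0.85. By line that median was -0.59 in SMB21, -1.73 in SMB55 and 0.18 in SMB56. In SMB56 1 of the 8 fell (12.5%), against 9.41% of the 5970 genes. Septin3, a septin of neurons that is in no list, went from 10.22, 10.69, 10.64 and 10.53 to 7.41, 8.83 and 7.90 in SMB21, from 10.60 and 10.65 to 7.91 and 8.36 in SMB55, and from 10.78 and 10.16 to 8.69 and 8.83 in SMB56. It fell by 2.27 (SE 0.27, adjusted p = 3.35e-05 by limma), and tumors, at 10.94 to 11.36, lay above all cultures. Rims2, a scaffold of synaptic vesicle release that is also in no list, fell by 2.19 (SE 0.36, adjusted p = 0.000413), in SMB55 from 9.74 and 9.53 to 7.87 and 7.48. Khdrbs3, an RNA-binding protein, fell by 1.46 (SE 0.24) and Ppp1r1a, an inhibitor of protein phosphatase 1, by 1.08 (adjusted p = 0.0334), a call lost in 8 of the 15 fits with an array left out (adjusted p up to 0.0765), namely without SMB21 RAS 1, SMB21 parental 3 or 4, any of the 4 SMB55 arrays or SMB56 parental 1. The granule precursor markers fell with them, 6 of 7 called, with Atoh1 at -6.45 and Barhl1 at -3.43. The list of immune and Ly6 genes had no member above the level.

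The response to RAS differed between the 3 lines, and most members were lower in the response of SMB21, though few were called singly. The test of the difference was the response of 1 line less the mean of the other lines. It called 0 members higher and 14 (5.86%) lower in SMB21, where 1.13% and 1.44% of all genes were called. Of the 5970 genes 1.12% and 1.54% were. At an unadjusted p under 0.05 by limma 1 member was higher and 94 were lower. The median over the members was -0.52, against -0.01 over the 5970 genes, and 9.62% of members were positive. For SMB55 0 were higher (43 at an unadjusted p under 0.05) and 2 lower, where 0.775% and 0.686% were called, and for SMB56 3 were higher and 0 lower (7 unadjusted), where 0.565% and 0.387% were. The 14 of SMB21 became 23 and 28 without SMB21 parental 1 and SMB56 parental 2. They became 8 without SMB21 RAS 2, 4, 3 and 3 without SMB21 parental 2, 3 and 4, 5 and 3 without SMB55 RAS 1 and parental 1, and 2, 4 and 7 without SMB56 RAS 1, RAS 2 and parental 1. The 2 of SMB55 became 12 without SMB21 parental 1, 6 without SMB56 parental 2, 4 without SMB55 RAS 2, and 1 without SMB55 RAS 1, SMB55 parental 1, SMB55 parental 2 or SMB56 RAS 2. The 3 of SMB56 became 16 without SMB56 parental 2 and 1 without SMB56 parental 1 or RAS 2.

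Ctnnd2, delta-catenin, a neuronal adhesion protein, changed in opposite directions. It went from 10.04, 9.82, 10.20 and 10.01 to 6.86, 5.59 and 5.48 in SMB21 (-4.04, adjusted p = 4.42e-06 by limma), and from 9.31 and 9.67 to 11.63 and 11.70 in SMB56 (2.17, adjusted p = 0.00464). In SMB55 it was at 9.85 and 9.67 in parental and 8.71 and 8.81 in RAS arrays, which did not overlap but missed the threshold (adjusted p = 0.0697). Over the lines it was therefore not called (-1.56, adjusted p = 0.104), though it passed without SMB56 parental 1 (adjusted p = 0.0423) or SMB56 RAS 2 (0.0481). Kif21a, a kinesin of axons, fell by 2.30 in SMB21 only among the within-line tests (adjusted p = 0.000887), and over the lines it passed only without SMB55 RAS 1 (adjusted p = 0.0462). Pfdn5, a prefoldin subunit named after its values were seen, went from 12.66 and 12.64 to 11.77 and 11.86 in SMB55 (-0.83, called). In SMB56 it went from 12.21 and 12.29 to 12.60 and 12.59 (0.34, not called within that line). Both differences were small but tight.

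Cntn1, an adhesion molecule of neurons, separated lines as much as treatments. It was at 5.40 to 6.30 in every SMB21 array, and in SMB55 it went from 11.99 and 12.91 to 7.09 and 7.26 (-5.28, adjusted p = 0.0159 by limma). In SMB56 the RAS arrays were at 12.55 and 13.26 and the parental arrays at 7.54 and 13.61, so no direction can be read there. The difference over the lines was -0.93 (adjusted p = 0.502).

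In growth factors the chromosome showed no shift of one sign. The GF arrays, 1 per line, stood at 0.28, 0.30 and 0.03 against P6 in SMB21, SMB55 and SMB56. Against the parental mean of the line the centred medians were -0.09, 0.06 and -0.18, and by single parental arrays 1 of 4 pairs was above 0 in SMB21, 1 of 2 in SMB55 and 0 of 2 in SMB56. With 1 array a line these values have no replicate check within a line. RAS and GF are each compared with the same parental arrays, so the values are only set side by side.

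Over the 3 lines 8 members (3.35%) rose and 16 (6.69%) fell in GF cells, where 3.99% and 4.96% of all genes did. Of the 5970 genes above the same level 4.82% rose and 7.6% fell, so the members showed no excess of called falls. Their median was nevertheless lower, at -0.19 against -0.08 over the 5970 genes. Of the members 27.6% were positive, against 41.4% of the 5970 genes. With the replicate number as a block, which pairs each GF array with parental 1 of its line, the counts were 1 and 1. Without the SMB21 GF array 12 members were called and without the SMB56 GF array 3. Selenop went from 7.22 to 10.05 in parental arrays to 13.25, 13.29 and 13.83 in GF arrays (4.61, SE 0.55, adjusted p = 0.000349 by limma), near its level in tumors and cerebellum, and was not called in RAS cells (0.87, adjusted p = 0.125). Slc1a3 rose by 2.39 (SE 0.52, adjusted p = 0.0112), to 11.51, 12.35 and 12.85 from 8.59 to 10.53. Deptor, an inhibitor of mTOR, rose by 1.43 and Klf10 by 1.33. Falls were of Septin3 (-1.72), Phf20l1, a chromatin reader (-1.44), Rims2 (-2.07) and Kif21a (-1.97). With the block the calls left were Selenop (4.58, adjusted p = 0.0188 by limma) and Skp2 (-0.97, adjusted p = 0.0481). The others named here kept their sign and were not called, with adjusted p from 0.0753 for Phf20l1 to 0.209 for Deptor.

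Set against GF cells, 32 members were higher and 7 lower in RAS cells, where 5.7% and 5.45% of all genes were. The shares among the 5970 genes above the same level were 7.1% and 7.3%. The median was 0.35 over the members and 0.00 over the 5970 genes. The GF arrays enter both this median and that of GF against parental cells, where the members stood at -0.19. The count of 39 was 13 without the SMB55 GF array, 17 without the SMB56 GF array, 25 without SMB55 RAS 2 and 63 without SMB21 RAS 2. With the replicate block it was 3, namely Selenop, Ghr and Atg101. Creld2 (1.2, SE 0.23, adjusted p = 0.00571 by limma) and Prkag1 (0.72, SE 0.14, adjusted p = 0.00643) were higher in RAS than in GF cells, with adjusted p of 0.0633 and 0.06 in the block, and Slc1a3 and Selenop (-3.74, adjusted p = 0.00201) were lower.

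The choice of level and of probe set bears on which genes are members. Just above the level of 8.5 were Fzd6 at 8.51, Cdpf1 at 8.54 and Pick1 at 8.55, with differences between RAS and parental cells of 1.48, 0.40 and 0.32. Just below it were Maff at 8.48, Tmem184b at 8.48 and Serhl at 8.48, with 2.95, 1.35 and 0.28. Of the genes planned to be described in any case, Hsf1, Itga5 and Ptk2 were at or below the level and are not members. Of the members 118 had several probe sets. For 72 genes with another probe set above the level, 113 probe sets in all, 285 of 339 values of a line (84.1%) had the sign of the probe set that was kept.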

How the data were processed

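Total RNA of 24 samples was biotin labelled and hybridized by the array maker's protocol, per the labels' protocols. The deposited values are the authors' linear intensity per probe set and array, and the method of summarising and normalising them was not given in the sources used here. Single intensities ran from 10.0 to 37842 and the medians of the arrays from 188.8 to 245.1. Arrays have no read depth, so their number and signal over background limit the precision.

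Of 22690 probe sets 20393 had 1 gene symbol, 691 several and 1606 none. The probe set with the highest mean was kept for each gene, which left 12394 genes, 12370 of them matched to the RefSeq GRCm38.p6 gene table. Values were used as log2(intensity + 16). Changes are differences of such values. The models were those of limma 3.58.1 (R 4.3.3), moderated and two-sided, with Benjamini-Hochberg adjustment over the 12394 genes and a threshold of 0.05. The 18 cultures were fitted with treatment and line as terms, or with 1 mean per line and treatment for tests within lines and between their responses. Tissues were fitted with 1 mean per parental line. The limma code was tested on simulated data.

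Named genes are the 10 largest rises and falls called in RAS cells whose arrays overlap in no line, the 4 largest each way within a line or in GF cells, for each list the 4 called members of smallest p, 12 genes fixed in any case, and 3 genes on each side of the level. Others named are said to be chosen after their values were seen, or stand as block ends, list members, shared calls or genes whose response differed by line. Members and lists were chosen with earlier results of these data known. The labels share replicate numbers. RAS arrays correlated with the parental array of the same number at -0.154 to -0.020, as deviations from the mean of the culture group, and were not taken as paired. GF arrays correlated with parental 1 of their line at 0.216, 0.339 and 0.104, as deviations from treatment means, which include the line. They correlated with other parental arrays of the line at 0.110 to 0.272, so this is a weak sign of pairing, and GF results are given without the block and with it. Alternatives tried were other pseudocounts, centring, level thresholds, probe set rules, priors, replicate blocks, and arrays or lines left out.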

Additional observations from a re-analysis of the deposited data

Results flagged for a closer look

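Over the 4 SMB21 parental arrays, 56 values were looked at for an array far from the other 3, and 12 had one, 11 of them SMB21 parental 1. Chance flags about 1 group in 20. Its chromosome 15 median against P6 was 0.0595, where the other arrays had 0.39 to 0.46. Its log2 levels stood below those of the other SMB21 parental arrays in Ank (9.80), Creld2 (9.45), Fam118a (9.05), Fzd6 (6.61), Myh9 (10.31), Pabpc1 (14.25), Pick1 (8.19), Rai14 (9.36), Skp2 (10.83) and Zhx1 (10.62). Cdpf1 stood apart in SMB21 parental 3 (9.04).

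The response to RAS differed between lines, by limma's test of the difference, in 14 members for SMB21, each of them lower there than the mean of the other lines. Ctnnd2 stood at -4.63, Kif21a at -2.56, Pmm1 at -1.93 and Tafa5 at -1.73. Commd5 was at -1.65, Oxr1 at -1.39, Sgsm3 at -1.33, AW549877 at -1.17 and Gtpbp1 at -1.04. Basp1 was at -0.94, Lifr at -0.90, Copz1 at -0.82, Tnrc6b at -0.57 and Ttc33 at -0.53. For SMB55 the difference was -0.89 in Pfdn5 and -2.44 in Pvt1, and for SMB56 it was 4.69 in Ctnnd2, 0.87 in Pfdn5 and 2.65 in Pvt1. These lists rest on few arrays: that of SMB21 holds 2 to 28 members, that of SMB55 1 to 12 and that of SMB56 1 to 16 when 1 array is left out, with the arrays named beside the counts above.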

How the results depend on the processing

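Of 1540 values of 55 named genes, 1395 kept their side of the threshold, 134 lost the call, 10 gained it and 1 was reversed, Scaf11 at -0.086 with the mean over all probe sets of a gene. Dap, Ghr, Klf10, Mapk8ip2, Plec, Arfgap3, Cdc42ep1, Prkag1, Skp2 and Ift27 kept the call over the lines in every alternative run. Counts of called members moved more. With 1 mean per line and treatment, limma called 17 for RAS against parental cells (82 in the report, and 63 at an unadjusted p under 0.05), 1 for GF against parental (24 in the report) and 0 for RAS against GF (39 in the report, and 85 at an unadjusted p under 0.05). The RAS count was 45 without line SMB55. The GF count dropped to 3 when line SMB21 was left out, and to 3 when SMB56 was. The count of RAS against GF was 60 without line SMB21, 6 without SMB55 and 22 without SMB56. Without parental array 1 of every line, chosen after seeing the data, the counts were 54 for RAS, 41 for GF, 61 for RAS against GF, 44 within SMB55, 14 within SMB56 and 5 for the response of SMB55 against the other lines. That of SMB56 against the other lines was 5 with a pseudocount of 64. With the mean over all probe sets, also chosen after seeing the data, limma called 0 for the response of SMB55 against the other lines (49 at an unadjusted p under 0.05).

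With a replicate block the RAS count was 61 (45 higher and 16 lower), with GF at 2 and RAS against GF at 3. RAS arrays did not deviate with the parental array of the same number, and the crossed SMB55 pairing, tried after seeing the data, gave 60. With 1 array left out the counts were 65 to 89 for RAS, 3 to 28 for GF, 13 to 63 for RAS against GF, 38 to 58 within SMB21, 22 to 60 within SMB55 and 6 to 57 within SMB56. For the responses of SMB21, SMB55 and SMB56 against the other lines they were 2 to 28, 1 to 12 and 1 to 16. Against P6 they were 4 to 17 for the tumors and 25 to 113 for the parental lines.

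With no level threshold, likewise chosen after seeing the data, the chromosome 15 median was 0.19 in SMB55, 0.16 in SMB56 and 0.14 for SMB21 parental cells against P6. That of the tumors was -0.049 with arrays centred on all genes and ran from -0.018 to 0.0076 with 1 array left out.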
